A study of Homo sapiens with 12 samples.

Results

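The genes described here are the 76 nuclear genes named MRPL or MRPS, symbols given to proteins of the mitochondrial ribosome. MRPS36 is an exception described further on. The genes were taken from the count table of T47D cells by symbol alone (MRPL or MRPS, a number and, for a few, a letter A, B or C), and they are 76 of the 55882 genes in that table, 47 with a large subunit name (MRPL) and 29 with a small subunit name (MRPS). No expression value was used to choose them. T47D is an established, estrogen receptor positive luminal breast cancer cell line. RNA was sequenced from 4 groups of 3 libraries each: wild-type T47D cells, called control cells here, in ethanol vehicle or in 2 nM estradiol, and T47D cells with ectopic HOXB13, a homeobox transcription factor, in vehicle or in 2 nM estradiol. All 4 groups spent 72 h in medium with 10% charcoal-stripped serum, which is depleted of steroids, before 24 h of vehicle or estradiol. The labels do not say how HOXB13 was introduced, whether the HOXB13 cells are 1 clone or a pool, or whether libraries of a group came from separate cultures, so p-values measure the spread between these libraries.

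The mitochondrial ribosome translates the mRNAs of the mitochondrial genome, all of which encode subunits of the respiratory chain and the ATP synthase. Its rRNAs are transcribed inside the mitochondrion, whereas its proteins are encoded in the nucleus, made in the cytosol and imported. Some of the proteins descend from those of the bacterial ribosome, and others are found only in mitochondria. In cancer cells, genes of mitochondrial translation have been studied as part of growth and of the response to MYC.

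Library totals lay between 17679824 and 21385996 counts, and a single MRP gene had 17 to 5452 counts in a library. HOXB13 had 0 to 2 counts in the 6 control libraries and 92 to 112 counts in the 6 libraries labelled with ectopic HOXB13. The luminal epithelial markers KRT8, KRT18, KRT19, EPCAM, CDH1, GATA3 and ESR1 summed to 17578 to 24858 CPM over the 12 libraries, where CPM is the count scaled to the effective library size. Of 9 markers of other cell types in the table, CDH5 was at 0 in every library, PTPRC, CD3E, CD68, VWF and PDGFRB stayed at or below 0.261 CPM, COL3A1 lay between 0.802 and 2.50 CPM, ADIPOQ between 0.0521 and 1.46 CPM and COL1A1 between 51.5 and 64.1 CPM. Libraries numbered 2 stood apart from those numbered 1 and 3 in the MRP genes, as described further on, and the counts over all 76 genes are given with and without them.

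To show the DNA just before these genes, the promoter regions of 68 of the 76 were found in the RefSeq table of the assembly GRCh38.p14 (MRPS36 under its current symbol KGD4). MRPL2, MRPL10, MRPL13, MRPL15, MRPL21, MRPL23, MRPL35 and MRPS28 were not matched. Each region held 250 bases before and 50 bases after the annotated start and was searched on both strands for letters bound by factors known from promoters of mitochondrial genes. The 120 bases before the start are printed for 8 genes, 5′ to 3′ on the strand of the gene: the 3 with the largest estradiol responses (MRPL17, MRPL12 and MRPL24), 3 other responding genes with matches (MRPL3, MRPL27 and MRPL36), MRPL52 with its pair of YY1 matches, and MRPL53, the gene with the lowest response. Capitals mark every match of GCGCA, any base and GCGC in a row (NRF1), CCGGAAGT (ETS factors, among them GABPA), AAGATGGCG (YY1) and CACGTG (E-box, bound by MYC and others), on either strand. In MRPL36 the NRF1 match, like the YY1 match, reads on the strand opposite to the one printed.
MRPL17, chr11:6683341-6683460, minus strand, with an NRF1 match: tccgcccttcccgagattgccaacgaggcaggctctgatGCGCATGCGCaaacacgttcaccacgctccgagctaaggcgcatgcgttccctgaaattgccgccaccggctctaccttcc
MRPL12, chr17:81703247-81703366, plus strand, with no match: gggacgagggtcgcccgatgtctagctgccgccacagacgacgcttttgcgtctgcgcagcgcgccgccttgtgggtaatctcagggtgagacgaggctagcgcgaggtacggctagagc
MRPL24, chr1:156741089-156741208, minus strand, with no match: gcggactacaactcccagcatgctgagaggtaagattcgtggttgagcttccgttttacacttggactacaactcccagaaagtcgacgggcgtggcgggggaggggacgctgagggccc
MRPL3, chr3:131502972-131503091, minus strand, with an ETS match: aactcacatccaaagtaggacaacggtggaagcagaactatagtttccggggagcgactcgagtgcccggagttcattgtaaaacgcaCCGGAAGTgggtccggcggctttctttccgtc
MRPL27, chr17:50373185-50373304, minus strand, with a pair of ETS matches: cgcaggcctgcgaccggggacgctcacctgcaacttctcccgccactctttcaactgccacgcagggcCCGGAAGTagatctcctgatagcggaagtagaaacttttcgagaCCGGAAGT
MRPL36, chr5:1799838-1799957, minus strand, with an NRF1 match, an E-box and a YY1 match on the other strand: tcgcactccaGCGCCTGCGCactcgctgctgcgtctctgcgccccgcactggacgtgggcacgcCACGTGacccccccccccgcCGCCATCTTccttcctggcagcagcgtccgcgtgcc
MRPL52, chr14:22829767-22829886, plus strand, with a pair of YY1 matches: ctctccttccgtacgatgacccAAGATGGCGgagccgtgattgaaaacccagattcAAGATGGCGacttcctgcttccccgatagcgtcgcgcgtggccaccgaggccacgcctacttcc
MRPL53, chr2:74472681-74472800, minus strand, with an ETS match: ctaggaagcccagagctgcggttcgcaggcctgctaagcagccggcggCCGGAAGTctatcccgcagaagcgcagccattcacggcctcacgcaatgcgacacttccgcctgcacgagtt

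Over the whole regions, the YY1 letters were found in 13 of 68 MRP genes (19.1%), against 4% of the 9910 promoters of tested genes and 1.75% of all 35116 promoters in the table. In 10 of the 13 the match lay past the annotated start, and in 3 before it. ETS letters were found in 11 of 68 (16.2%, against 8.76% of tested genes), NRF1 letters in 7 (10.3%, against 11.7%) and the E-box in 7 (10.3%, against 10%). The letters GGGCGG of SP1 were found in 42 (61.8%, against 70.3%) and those of the CCAAT box in 20 (29.4%, against 36.8%). The full estrogen response element, GGTCA and TGACC with 3 bases between, was found in none of the 68 and in 0.0101% of the promoters of tested genes. These searches describe letters in a fixed window and were not tested.

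In both genotypes, summed MRP mRNA was 1.16 to 1.18 times as high in estradiol as in vehicle, most of the 76 genes had fold changes above 1, and the genes that passed the test rose: MRPL17, MRPL12, MRPL24, MRPS23, MRPS25, MRPL3 and MRPS16 did so in control and in HOXB13 cells. None of the 76 fell. CPM is a share of each library, so more MRP mRNA per cell and less of other RNA cannot be told apart. None passed the test for HOXB13 at either treatment. The summed level was 3285, 4264 and 3476 CPM in control cells in vehicle and 3964, 4876 and 4138 CPM in control cells in estradiol (libraries 1 to 3). In HOXB13 cells it was 3494, 4121 and 3280 CPM in vehicle and 4017, 4573 and 4096 CPM in estradiol. Vehicle and estradiol groups overlapped in both genotypes, because vehicle library 2 lay above estradiol libraries 1 and 3. Group means were 3675 ± 519 and 4326 ± 484 CPM in control cells (SD, n = 3) and 3632 ± 437 and 4228 ± 301 CPM in HOXB13 cells. The estradiol to vehicle ratio of the means was 1.18 in control cells and 1.16 in HOXB13 cells, and within pairs of the same library number it ran from 1.14 to 1.21 and from 1.11 to 1.25. Genes with a large subunit name summed to 2130 ± 306 and 2513 ± 306 CPM in control cells without and with estradiol. Those with a small subunit name summed to 1545 ± 214 and 1813 ± 178 CPM.

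**Figure D1:**
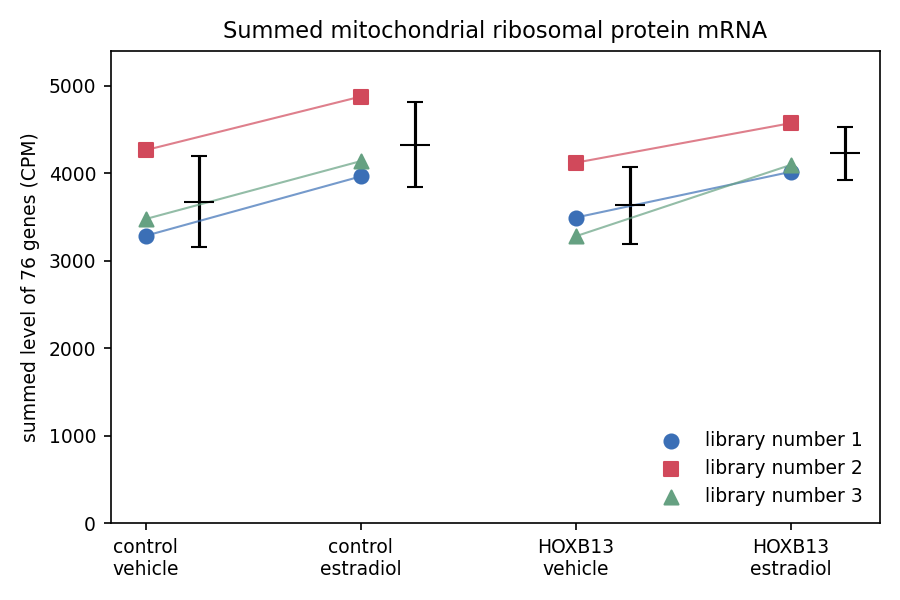
Summed level of the 76 MRP genes (CPM, y axis) in each of the 12 libraries by group (x axis); symbols mark the library number, lines join libraries of the same number within a genotype, and black bars give mean ± SD of 3 libraries. Every line rises from vehicle to estradiol, and library number 2 is the highest in all 4 groups, at 4121 to 4876 CPM.

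Read as fold changes on the log2 scale, the medians over the 76 genes for estradiol were 0.20 in control cells and 0.26 in HOXB13 cells, where the medians over all 14799 tested genes were -0.01 in each. The log2 fold change was above 0 for 68 of 76 genes in control cells and for 66 in HOXB13 cells. A gene was called at 0.05 in edgeR's quasi-likelihood test, adjusted by Benjamini and Hochberg's method over all tested genes. By this rule 10 of the 76 (13.2%) rose in control cells, against 8.65% of all tested genes. In HOXB13 cells 7 (9.21%) rose, against 7.22%. In this fit, which did not pair libraries by number, these shares are near their backgrounds. In the estradiol effect averaged over both genotypes 22 (28.9%) rose, against 14.6%. No MRP gene fell in any of these comparisons, where 6.72%, 6.38% and 13.5% of all tested genes fell. Without adjustment, 22, 19 and 35 of the 76 (28.9%, 25% and 46.1%) had a p under 0.05. Among all tested genes 28.1%, 26.1% and 38.8% did, counted in either direction. The shares within each genotype are near these backgrounds. Every MRP gene with such a p within a genotype was higher in estradiol, and the background of rises alone was not counted at this threshold. All 7 genes called in HOXB13 cells were among the 10 called in control cells. These comparisons share no library, but each gene's spread was estimated over all 12 libraries, so the calls are not independent.

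With the library number as a block, edgeR called 34 genes higher in control cells (44.7%, background 17.5%) and 39 in HOXB13 cells (51.3%, background 15.5%). Among the genes this added in both genotypes were MRPL11, MRPL13, MRPL14, MRPL20, MRPS6, MRPS11, MRPS12 and MRPS34. Without the 4 libraries numbered 2, 25 and 30 were called (32.9% and 39.5%, backgrounds 12.9% and 11.7%), and 44 in the averaged comparison (57.9%, background 19.3%). In the averaged comparison the block gave 51 genes higher (67.1%, background 22.7%) and 1 lower, MRPL41 (background 22.8%). Leaving out control vehicle library 2 alone also gave 25 in control cells and raised the median there to 0.37. The control count fell to 2 without control vehicle library 1 or control estradiol library 2, and to 3 without number 3 of either control group. The HOXB13 count fell to 1 without HOXB13 vehicle library 1, to 3 without HOXB13 vehicle library 3 or HOXB13 estradiol library 2, and to 4 without HOXB13 estradiol library 1 or 3. The averaged count was 14 without control estradiol library 2, HOXB13 vehicle library 1 or HOXB13 vehicle library 3, 36 without control vehicle library 2 and 34 without HOXB13 vehicle library 2. Backgrounds of the fits with 1 library left out are not given here. In the counts with 1 library left out, a change in the MRP genes and a change in all genes thus cannot be told apart.

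**Figure D2:**
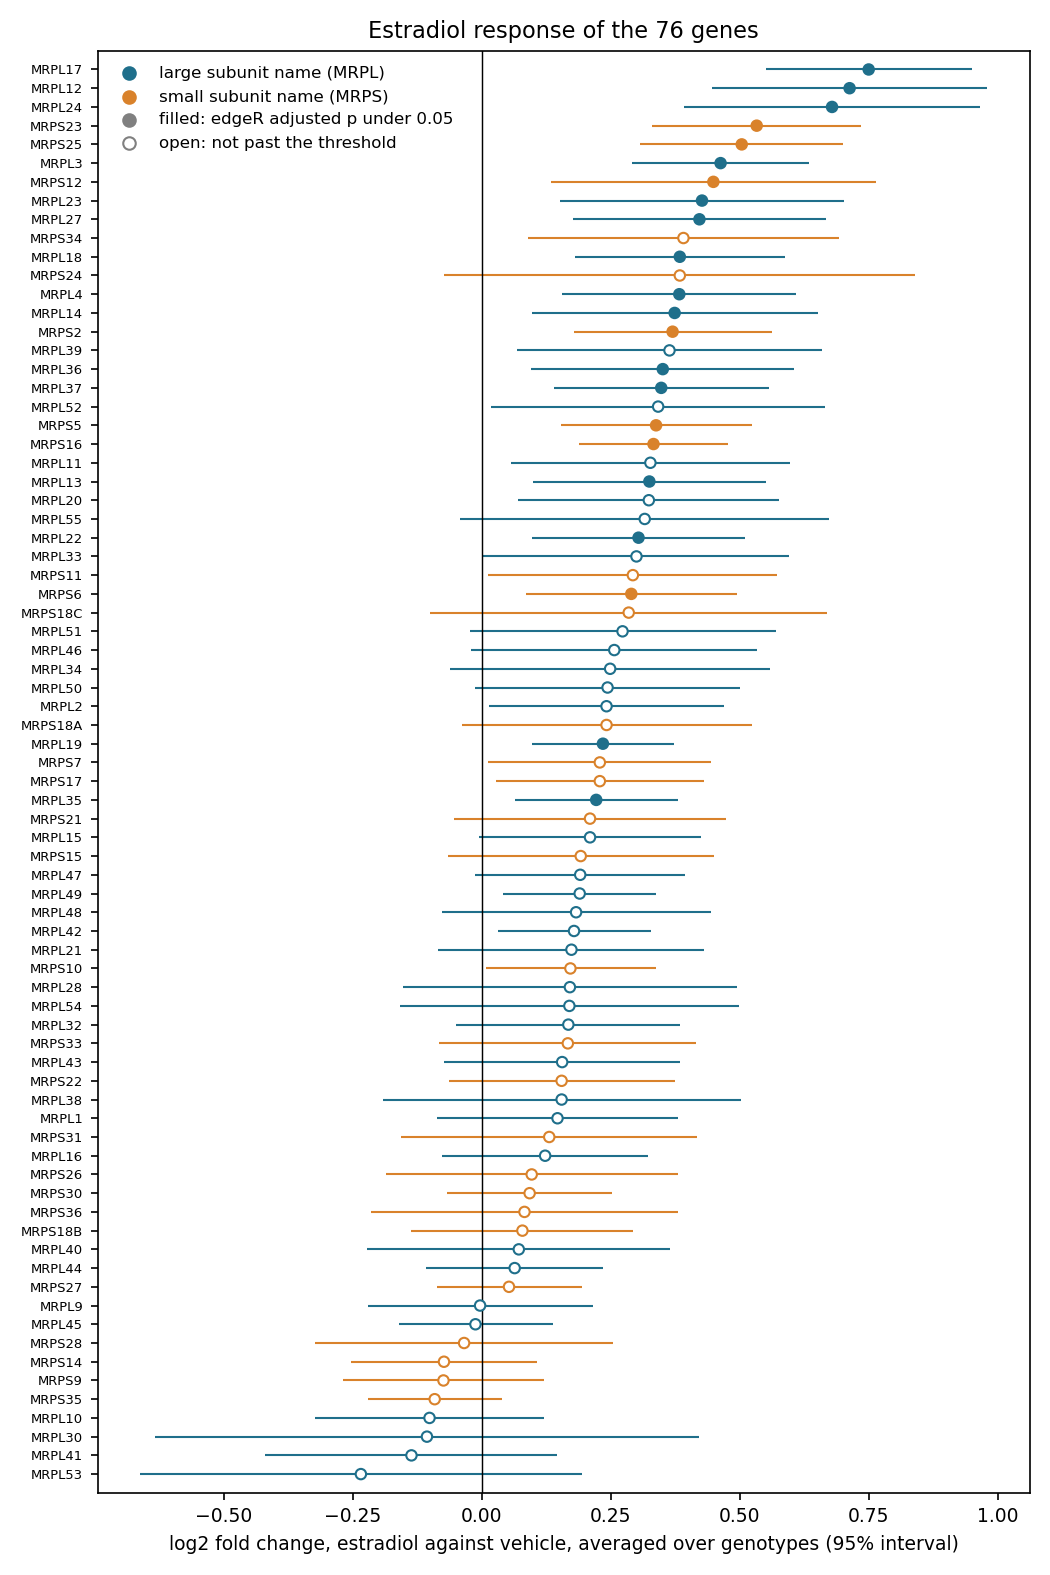
Estradiol response of each of the 76 MRP genes as log2 fold change averaged over genotypes (x axis), with 95% intervals from edgeR; colours give the subunit in the gene's name and filled points passed the adjusted threshold. The filled points number 22 and lie between 0.22 and 0.75, and 10 genes lie below 0.

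Counted by library, all 3 estradiol libraries lay above all 3 vehicle libraries for 17 of 76 genes in control cells (background 16.1%) and for 26 in HOXB13 cells (background 15.3%). In pairs of the same number, 39 of 76 genes (51.3%) were higher in estradiol in all 6 pairs, against 20.5% of tested genes, and 21 more were higher in 5 pairs. MRPS35 was the single gene lower in all 6 pairs (background 20.4%), and also the single gene whose control libraries all lay lower in estradiol (background 14.9%).

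Among large subunit proteins with a bacterial counterpart, MRPL17 had the largest averaged response. Its family lies near the exit of the peptide tunnel in bacterial ribosomes. MRPL17 was at 27.9, 35.9 and 32.4 CPM in control cells in vehicle and at 50.9, 61.6 and 48.8 CPM in estradiol. In HOXB13 cells it was at 28.9, 34.1 and 28.1 CPM in vehicle and at 48.5, 56.1 and 49.3 CPM in estradiol. Every estradiol library lay above every vehicle library of either genotype. Its log2 fold change was 0.75 ± 0.13 (SE) in control cells (edgeR, Benjamini-Hochberg adjusted p = 0.00146) and 0.76 ± 0.13 in HOXB13 cells (adjusted p = 0.0017), and it passed in every leave-one-out fit of both.

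MRPL12 belongs to the stalk that recruits translation factors and has also been described as a partner of the mitochondrial RNA polymerase. MRPL12 was at 31.0, 37.3 and 26.5 CPM in control cells in vehicle and at 50.5, 68.5 and 52.0 CPM in estradiol. HOXB13 cells had 32.0, 39.5 and 24.1 CPM in vehicle and 47.1, 49.5 and 46.1 CPM in estradiol. The groups did not overlap in either genotype, and in estradiol the 3 HOXB13 libraries lay below the 3 control libraries. The log2 fold change for estradiol was 0.85 ± 0.18 in control cells (edgeR, adjusted p = 0.00451) and 0.58 ± 0.18 in HOXB13 cells (adjusted p = 0.0436). The second call was lost when any of 7 single libraries was left out, where the value ran from 0.41 to 0.60. In the GENCODE 29 annotation MRPL12 shares 68.2% of its exon bases with another gene model on the same strand.

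MRPL24, of a family that binds early in the assembly of the bacterial large subunit, was at 53.0, 69.4 and 44.4 CPM in control cells in vehicle and at 79.5, 104 and 86.6 CPM in estradiol. With HOXB13 it was at 52.9, 71.0 and 42.4 CPM in vehicle and at 83.9, 97.2 and 82.0 CPM in estradiol. The groups did not overlap, although vehicle library 2 was the highest of its group in both genotypes. MRPL24 had a log2 fold change of 0.70 ± 0.19 in control cells (edgeR, adjusted p = 0.0216) and 0.66 ± 0.19 in HOXB13 cells (adjusted p = 0.0315). Leaving out 1 library of the compared groups, other than a vehicle library 2 or control estradiol library 1, ended the call in that genotype, with values from 0.56 to 0.73 in control and from 0.50 to 0.71 in HOXB13 cells.

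MRPL3, a core protein that reaches toward the peptidyl transferase centre, was at 69.5, 87.8 and 87.6 CPM in control cells in vehicle and at 109, 119 and 107 CPM in estradiol. In HOXB13 cells MRPL3 was at 80.9, 95.7 and 89.4 CPM in vehicle and at 114, 133 and 122 CPM in estradiol. All 6 estradiol libraries lay above all 6 vehicle libraries. The log2 fold changes were 0.45 ± 0.11 and 0.47 ± 0.11 (edgeR, adjusted p = 0.0141 and 0.0122). In either genotype the call ended without vehicle library 1 or estradiol library 2, with values from 0.35 to 0.42. MRPL18 passed in control cells at 0.45 ± 0.13 (edgeR, adjusted p = 0.0344), and no longer without control vehicle library 1 or 3, control estradiol library 2 or 3, or HOXB13 vehicle library 1 (0.35 to 0.48). In HOXB13 cells MRPL18 had 0.32 ± 0.13, did not pass (edgeR, adjusted p = 0.146), and passed with the library number as a block (adjusted p = 0.00785).

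Of the small subunit, MRPS23 and MRPS25 are proteins without a bacterial counterpart. MRPS23 group means were 39.6 and 55.7 CPM in control cells and 36.7 and 54.7 CPM in HOXB13 cells, in vehicle and estradiol. Its estradiol libraries lay above its vehicle libraries in both genotypes. The log2 fold change of MRPS23 was 0.49 ± 0.13 in control cells and 0.57 ± 0.13 in HOXB13 cells (edgeR, adjusted p = 0.0217 and 0.0105). Its call ended in control cells without vehicle library 1 or 3 or estradiol library 2 or 3 (0.41 to 0.52), and in HOXB13 cells without vehicle library 1 (0.515). MRPS25, mutated in a mitochondrial encephalomyopathy, was at 37.7, 43.0 and 33.4 CPM in control cells in vehicle and at 48.3, 59.5 and 51.1 CPM in estradiol. In HOXB13 cells MRPS25 was at 33.9, 41.4 and 34.1 CPM in vehicle and at 55.5, 54.7 and 47.7 CPM in estradiol. Neither genotype's groups overlapped, with log2 fold changes of 0.48 ± 0.13 and 0.53 ± 0.13 (edgeR, adjusted p = 0.0215 and 0.0141). For MRPS25 the control call ended without the same 4 control libraries (0.39 to 0.51) and the HOXB13 call without HOXB13 vehicle library 1 or 3 or HOXB13 estradiol library 1 (0.48 to 0.49).

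MRPS16, a conserved protein of the small subunit mutated in a neonatal lactic acidosis, was the MRP gene with the highest level per coding length, 549 CPM per kb. It was at 202, 230 and 193 CPM in control cells in vehicle and at 261, 267 and 253 CPM in estradiol. With HOXB13 the values were 205, 229 and 207 CPM in vehicle and 252, 284 and 276 CPM in estradiol. The groups did not overlap in either genotype. MRPS16 had log2 fold changes of 0.32 ± 0.10 and 0.34 ± 0.10 (edgeR, adjusted p = 0.0351 and 0.0277). The control call of MRPS16 ended without any control library but vehicle 2, and also without HOXB13 vehicle library 1 (0.27 to 0.34). Its HOXB13 call ended without HOXB13 vehicle library 1 or 3 or HOXB13 estradiol library 2 or 3 (0.31 to 0.33). MRPS2 and MRPS5, of families beside the mRNA channel, passed in control cells at 0.46 ± 0.13 and 0.40 ± 0.12 (edgeR, adjusted p = 0.0236 and 0.0393). The call of MRPS2 ended without control vehicle library 1 or 3 or control estradiol library 2 or 3 (0.37 to 0.50). That of MRPS5 ended without any control library but vehicle 2, and also without HOXB13 vehicle library 1 or HOXB13 estradiol library 1 or 3 (0.34 to 0.44). The MRPS5 call also ended with no filter on low counts (0.40). In HOXB13 cells MRPS2 and MRPS5 had 0.28 ± 0.13 and 0.28 ± 0.12 and did not pass (edgeR, adjusted p = 0.176 and 0.164). Both passed with the library number as a block (edgeR, adjusted p = 0.0119 and 0.0231). Whether the estradiol effect differed between genotypes was tested by the interaction, in which none of the 76 passed.

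**Figure D3:**
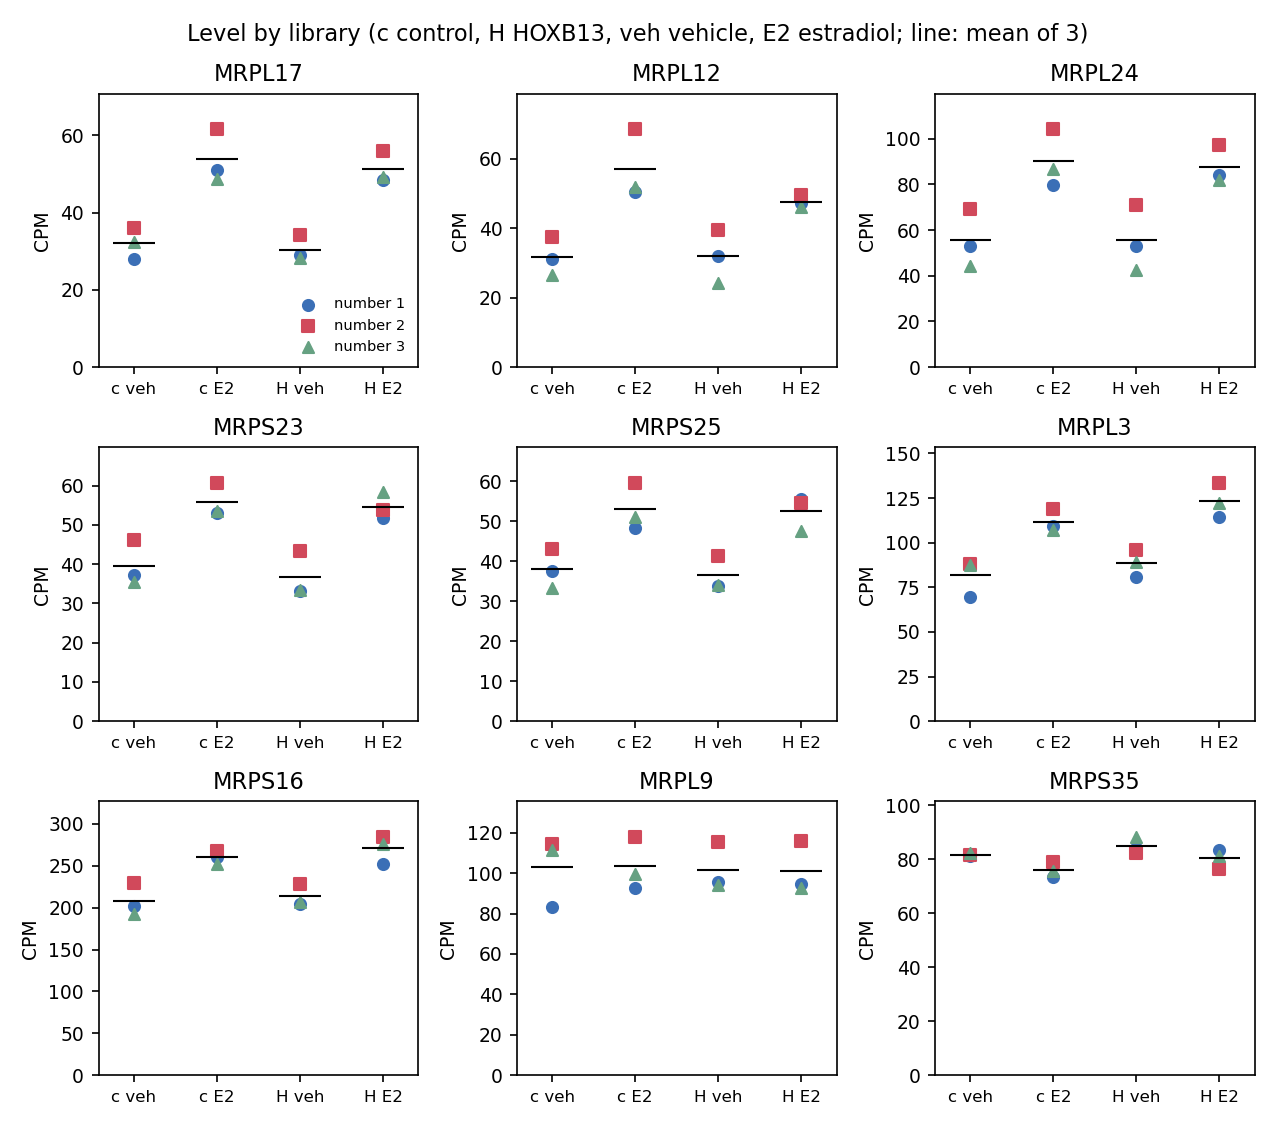
Level (CPM, y axis, from 0) of 9 MRP genes in every library by group (x axis: control or HOXB13 cells, vehicle or estradiol); symbols mark the library number and black lines the mean of 3. For MRPL17, MRPL12, MRPL24, MRPS23, MRPS25, MRPL3 and MRPS16 the estradiol libraries lie above the vehicle libraries of the same genotype, whereas MRPL9 overlaps in both.

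A further 12 genes passed only in the estradiol effect averaged over both genotypes: MRPL4, MRPL13, MRPL14, MRPL19, MRPL22, MRPL23, MRPL27, MRPL35, MRPL36, MRPL37, MRPS6 and MRPS12. With any 1 library left out, MRPL4, MRPL19, MRPL27 and MRPL37 still passed, and each of the others lost its call without at least 1 library. MRPS12, of the decoding centre, had the largest value of these, 0.45 ± 0.15 (edgeR, adjusted p = 0.0338), and its vehicle and estradiol groups overlapped in both genotypes. The MRPS12 call ended when any of 7 single libraries was left out (0.34 to 0.45). MRPL35 had the smallest, 0.22 ± 0.07 (edgeR, adjusted p = 0.0362), with groups that did not overlap. The MRPL35 call ended when any of 8 single libraries was left out (0.20 to 0.24), and without all libraries numbered 2 (0.21). MRPL19 was among the 3 genes with the least spread within groups: it was at 46.1, 44.9 and 47.3 CPM in control cells in vehicle and at 48.7, 54.7 and 53.8 CPM in estradiol. HOXB13 cells had 43.0, 43.0 and 43.1 CPM of MRPL19 in vehicle and 53.4, 51.4 and 52.4 CPM in estradiol. A narrow spread and no overlap thus went with a log2 fold change of 0.24 ± 0.06 for MRPL19 (edgeR, adjusted p = 0.0132), a call that ended with no filter on low counts.

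By the subunit in the name, 15 of 47 MRPL genes and 7 of 29 MRPS genes rose in the averaged comparison. MRPS18A, MRPS30 and MRPS36 are counted with the 29 by name, and MRPS36 also with the 28 genes below without a bacterial counterpart. The shares were 31.9% and 24.1%, against 14.6% of all tested genes, with median log2 fold changes of 0.24 and 0.21. Without the libraries numbered 2 the counts were 29 and 15 (61.7% and 51.7%, against 19.3%). Of the 48 genes whose proteins have a bacterial counterpart (by the number in the name, and MRPL47, MRPL55, MRPS24 and MRPS28), 19 (39.6%) rose, with a median of 0.27. Of the 28 without one 3 (10.7%) rose, with a median of 0.16: MRPL37, MRPS23 and MRPS25. The latter share lies below the 14.6% of all tested genes. Without the libraries numbered 2 these counts were 34 and 10 (70.8% and 35.7%, against 19.3%). Among large subunit names the counts were 14 of 30 with and 1 of 17 without a bacterial counterpart. Among small subunit names they were 5 of 18 and 2 of 11. This division was made after the values had been seen, and the difference was not tested.

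Levels per coding length spanned a wide range. After MRPS16 came MRPL49 at 318, MRPL41 at 306 and MRPS34 at 207 CPM per kb. The lowest were MRPL30 at 2.72, MRPS31 at 7.58, MRPL53 at 11.2 and MRPL46 at 16.1 CPM per kb. The other MRP genes lay between these values, and none failed the filter on low counts.

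MRPL41, a protein found only in mitochondria that has been reported to bind BCL2, was at 126, 173 and 120 CPM in control cells in vehicle and at 115, 151 and 121 CPM in estradiol. In HOXB13 cells MRPL41 was at 122, 150 and 96.9 CPM in vehicle and at 99.7, 135 and 97.0 CPM in estradiol. Its groups overlapped throughout, with library 2 the highest in each. The averaged log2 fold change was -0.14 ± 0.13 and did not pass (edgeR, adjusted p = 0.485). With the block it was called lower, at -0.13 ± 0.05 (edgeR, adjusted p = 0.0479). MRPL49, of the large subunit, had 0.19 ± 0.07 in the averaged comparison and did not pass (edgeR, adjusted p = 0.0532). MRPS34, a small subunit protein mutated in Leigh syndrome, was at 108, 156 and 97.5 CPM in control cells in vehicle and at 144, 200 and 150 CPM in estradiol. Vehicle library 2 of MRPS34 thus lay above estradiol libraries 1 and 3. Its log2 fold change in control cells was 0.45 ± 0.20 and did not pass (edgeR, adjusted p = 0.153), and it passed with the block (adjusted p = 3.9e-05) and without the libraries numbered 2 (adjusted p = 0.000448).

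At the low end, MRPL53 was at 3.51, 5.89 and 3.81 CPM in control cells in vehicle and at 3.27, 5.31 and 3.68 CPM in estradiol. HOXB13 cells had 3.38, 4.54 and 3.14 CPM of MRPL53 in vehicle and 3.13, 2.03 and 3.47 CPM in estradiol. These groups overlapped, and the averaged log2 fold change of -0.23 had a 95% interval from -0.66 to 0.20. In GENCODE 29, MRPL53 shares 45.2% of its exon bases with CCDC142 on the same strand, and CCDC142 had 105 to 223 counts in a library. MRPL30 had the widest interval of the 76, from -0.63 to 0.42. MRPS31 and MRPL46 had averaged values of 0.13 ± 0.13 and 0.26 ± 0.13 and did not pass (edgeR, adjusted p = 0.512 and 0.16).

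MRPL9, MRPL45, MRPS28, MRPS27 and MRPL44 were the 5 genes closest to no estradiol effect, with averaged log2 fold changes from -0.03 to 0.06. MRPL45 anchors the ribosome to the inner membrane near its tunnel exit, and MRPL44 carries a fold of the ribonuclease III family. For MRPL45 the 4 group means lay between 90.9 and 92.6 CPM, and the 95% interval of its averaged effect ran from -0.16 to 0.14. MRPL9 lay at 83.2, 114 and 111 CPM in control cells in vehicle and at 92.7, 118 and 99.5 CPM in estradiol, with an interval from -0.22 to 0.22. The groups of both genes overlapped in both genotypes. MRPS35, a small subunit protein found only in mitochondria and the gene with the least spread, was at 81.4, 81.4 and 82.2 CPM in control cells in vehicle and at 73.5, 78.9 and 75.6 CPM in estradiol. Its control groups did not overlap, with estradiol below, and its averaged value of -0.09 ± 0.06 did not pass (edgeR, adjusted p = 0.295).

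The paralogs MRPS18A, MRPS18B and MRPS18C descend from a single bacterial protein, and MRPS18A sits in the large subunit in spite of its name. Per coding length MRPS18B was the fifth highest of the 76, at 200.3 CPM per kb. MRPS18A, MRPS18B and MRPS18C had averaged log2 fold changes of 0.24 ± 0.13, 0.08 ± 0.10 and 0.28 ± 0.18, and none passed (edgeR, adjusted p = 0.191, 0.601 and 0.266). MRPS18C was also among the 3 genes with the largest spread, at 7.92, 17.7 and 13.3 CPM in control cells in vehicle. MRPS36, now named KGD4 and known as a component of the 2-oxoglutarate dehydrogenase complex, is a member by its name. Its level was 13.1 ± 1.65 and 14.5 ± 3.27 CPM in control cells and 13.0 ± 3.38 and 13.2 ± 0.426 CPM in HOXB13 cells (SD, n = 3), in vehicle and estradiol. MRPS36 had an averaged log2 fold change of 0.08 ± 0.14 (edgeR, adjusted p = 0.701).

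Library number 2 was the highest of its group in summed MRP level in all 4 groups, by 1.26, 1.20, 1.22 and 1.13 times the mean of libraries 1 and 3. On the log2 scale the median gene of the 76 was 0.30 higher in number 2, against 0.01 over all tested genes, and 70 of 76 were above 0. In all 4 groups number 2 was the highest library for 52 of 76 genes (68.4%), against 16.8% of tested genes. MRPS24, MRPL55 and MRPS18C had the largest shifts, 0.63, 0.57 and 0.52. MRPS24, whose bacterial counterpart lines the mRNA entry, was at 26.0, 37.4 and 16.7 CPM in control cells in vehicle and at 27.8, 50.1 and 32.0 CPM in estradiol. It was not called for estradiol, with an averaged value of 0.38 ± 0.21 (edgeR, adjusted p = 0.203). MRPS24 was called higher in that comparison without the libraries numbered 2 (edgeR, adjusted p = 0.00388) and with the block (adjusted p = 0.0305). MRPS30, a protein of the large subunit by structure, was the single gene lowest in number 2 in all 4 groups (background 17.9%), at 59.2, 57.6 and 69.1 CPM in control cells in vehicle. The part of this library difference in the responses was not tested beyond the fits with the block and without those libraries.

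Across the 76 genes the estradiol log2 fold changes of the 2 genotypes had a Pearson r of 0.81, and the averaged response and the shift of number 2 had an r of 0.30. Both describe genes measured in the same 12 libraries, and genes are not independent replicates.

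**Figure D4:**
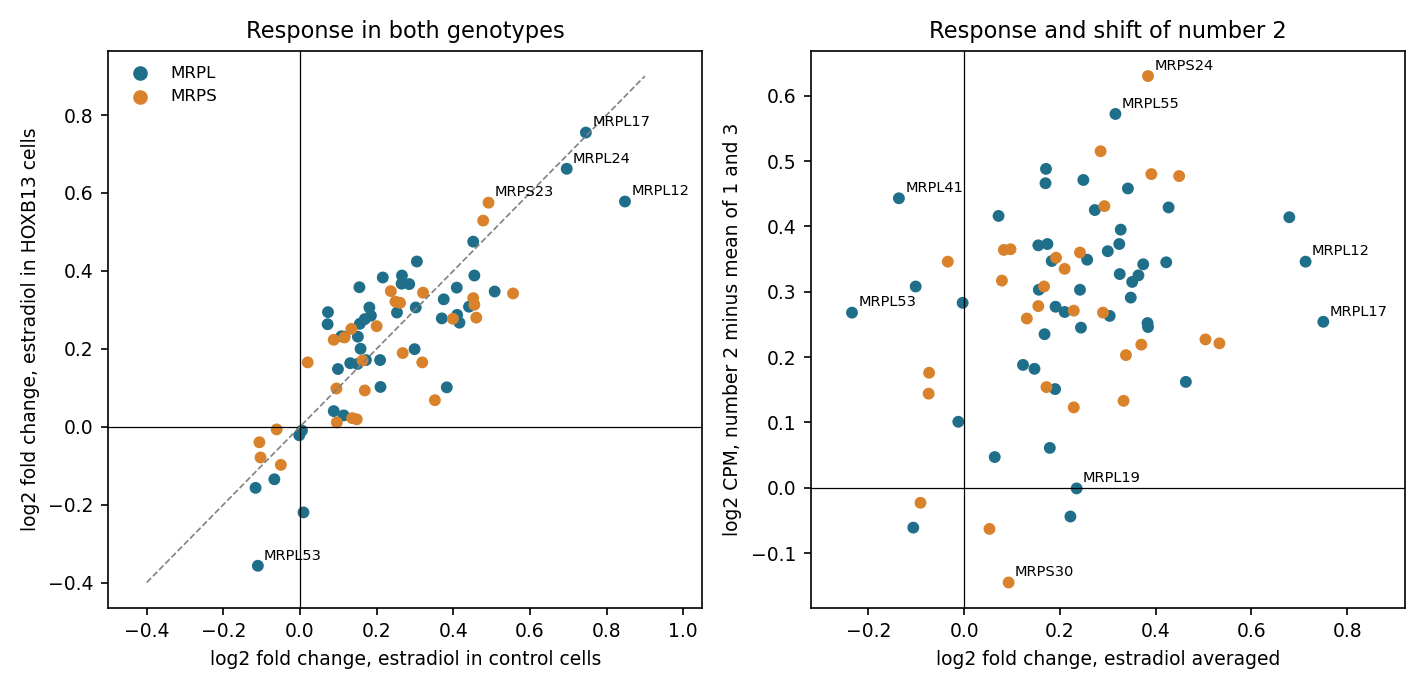
Left, the log2 fold change for estradiol of each MRP gene in control cells (x axis) and in HOXB13 cells (y axis), with the line of equality dashed; right, the averaged log2 fold change (x axis) against the log2 difference of library number 2 from the mean of numbers 1 and 3 (y axis). MRPL17, MRPL12 and MRPL24 lie farthest along the diagonal on the left, and on the right MRPS24 and MRPL55 have the largest shifts of number 2.

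Ectopic HOXB13 was compared with control cells at each treatment. The summed MRP level in HOXB13 cells was 0.988 times that of control cells in vehicle and 0.977 times in estradiol, and the ratios within a library number ran from 0.938 to 1.06. No MRP gene passed in vehicle or in estradiol by edgeR, with backgrounds of 0.0203% and 0.0135% of all tested genes, and no MRP gene had an unadjusted p under 0.05 in either. DESeq2 also called none of the 76 in either. In the effect averaged over treatments edgeR called none of the 76 (background 0.149%), 1 had an unadjusted p under 0.05, and DESeq2 called none. That gene was MRPL50, at -0.28 ± 0.12 (edgeR, adjusted p = 0.762). With the block 1 of the 76 was called in the averaged effect: MRPL41 was lower, at -0.21 ± 0.05 (edgeR, adjusted p = 0.0334; background 1.54% lower). Without the libraries numbered 2 no MRP gene was called for HOXB13 or for the interaction, where 1, 2, 4 and 1 of the 76 had an unadjusted p under 0.05 (in vehicle, in estradiol, averaged and interaction). The interaction of HOXB13 with estradiol called none of the 76 (background 0%), and no gene in the table by edgeR or DESeq2, with no MRP gene at an unadjusted p under 0.05.

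These comparisons bound the size of a HOXB13 effect. The 95% interval lay inside a 1.5-fold change in either direction for 65 of 76 genes in vehicle, for 64 in estradiol and for 73 averaged over treatments. Inside a 2-fold change lay 76 and 75 of the 76 in vehicle and estradiol. MRPL53 was the exception in estradiol, at -0.51 with an interval from -1.12 to 0.11. For the interaction the interval lay inside 1.5-fold for 40 genes and inside 2-fold for 73, so smaller differences between the genotypes' responses were not detectable with these libraries. MRPS35 lay above the control libraries in all 3 HOXB13 vehicle libraries, and MRPL19 and MRPL50 below (backgrounds 3.59% higher and 3.54% lower). In estradiol, MRPL12, MRPL27 and MRPS21 lay below the control libraries in all 3 HOXB13 libraries (background 5.37%), and none lay above (background 4.51%).

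Other genes of mitochondrial translation were read from lists drawn up with earlier results of these data known. The counts are for the averaged estradiol effect, in which 14.6% of all tested genes rose and 13.5% fell, and then for each genotype with the block (backgrounds 17.5% higher and 16.5% lower in control cells, 15.5% and 15% in HOXB13 cells). Of 7 mitochondrial ribosome proteins with other names, PTCD3 rose, at 0.23 ± 0.07 (edgeR, adjusted p = 0.0276). GADD45GIP1 had 0.39 ± 0.14, AURKAIP1 0.31 ± 0.14, CHCHD1 0.27 ± 0.13, MRP63 0.24 ± 0.12 and ICT1 0.23 ± 0.10, and these did not pass. DAP3, which binds GTP in the small subunit, had 0.06 ± 0.09. With the block 4 of the 7 rose in control cells and 5 in HOXB13 cells. The median of these 7 was 0.24, beside 0.23 for the 76 and -0.01 for all tested genes.

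Of 27 assembly factors 5 rose (18.5%, near the background) and none fell, with a median of 0.12: MTERFD1 (0.61), RBFA (0.50), MRM1 (0.43), FTSJ2 (0.42) and MPV17L2 (0.36). MRM1 and FTSJ2 (also MRM2) methylate the large rRNA, and RBFA acts in small subunit maturation. With the block 8 rose and 1 fell in control cells, and 6 rose and none fell in HOXB13 cells. Of 17 translation factors GUF1 rose, at 0.24, and the release factor C12orf65 fell, at -0.32, with a median of 0.06 for the list. TUFM, the elongation factor that brings tRNAs to the ribosome, had 0.09 ± 0.09. With the block 1 translation factor fell in control cells, and 1 rose and 1 fell in HOXB13 cells. Of 20 aminoacyl-tRNA enzymes 3 rose (MARS2, CARS2 and YARS2; 15%, near the background), with a median of 0.07. With the block 4 rose in control cells, and 1 rose and 1 fell in HOXB13 cells. Of 10 genes for transcription and replication of mitochondrial DNA 3 rose, namely C10orf2, the helicase Twinkle, at 0.71, TFAM at 0.31 and POLG at 0.28, with a median of 0.17. With the block 4 of the 10 rose in each genotype.

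No mitochondrially encoded RNA rose. MT-RNR2, the rRNA of the large subunit, was at 9349, 11265 and 8798 CPM in control cells in vehicle and at 7438, 6474 and 6212 CPM in estradiol. HOXB13 cells had 9435, 7987 and 6723 CPM of MT-RNR2 in vehicle and 6249, 7090 and 5810 CPM in estradiol. The control groups did not overlap and the HOXB13 groups did. Its averaged log2 fold change fell by 0.44 ± 0.10 (edgeR, adjusted p = 0.00572), and MT-RNR1, the rRNA of the small subunit, had -0.18 ± 0.09 and did not pass (edgeR, adjusted p = 0.135). None of the 13 mitochondrial mRNAs was called, with a median of -0.20. With the library number as a block, edgeR called 1 of the 13 lower in control cells, 9 in HOXB13 cells and 9 averaged. Of the 2 rRNAs the block gave 2 lower in control cells, 1 in HOXB13 cells and 2 averaged. In the averaged comparison with the block, 22.8% of all tested genes were lower. Mitochondrial transcripts took 6.95%, 6.40%, 7.38% and 6.15% of all counts in control vehicle, control estradiol, HOXB13 vehicle and HOXB13 estradiol. MRP genes took 0.3645%, 0.4315%, 0.3587% and 0.4303% of all counts in the same order. With mitochondrial transcripts taken out of the library total, the estradiol to vehicle ratio of the MRP share was 1.18 in control cells and 1.18 in HOXB13 cells. These are shares of raw counts, unlike the scaled CPM of the summed level above. The labels do not say how rRNA was removed or mRNA selected, a step on which the levels of mitochondrial rRNAs depend.

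**Figure D5:**
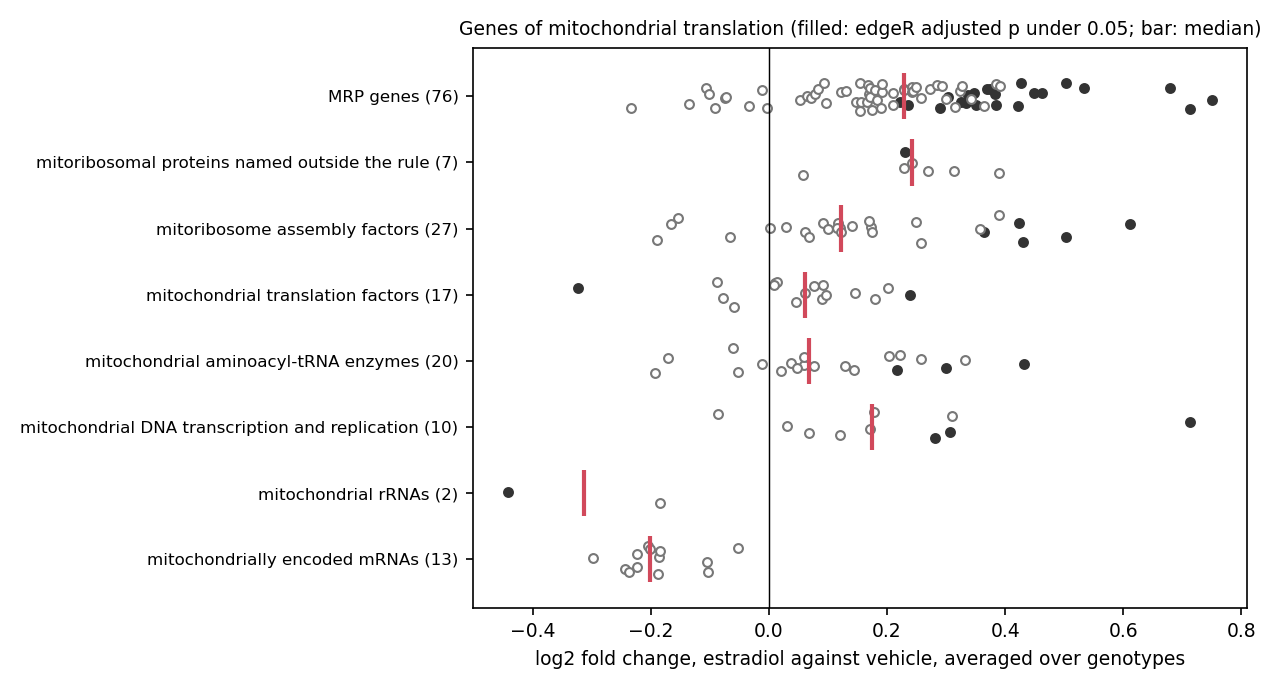
Averaged log2 fold change for estradiol (x axis) of each gene in 8 groups of genes for mitochondrial translation (y axis, with the number of genes tested); filled points passed the adjusted threshold and red bars mark medians. The 76 MRP genes have a median of 0.23, and the mitochondrially encoded rRNAs and mRNAs lie below 0.

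Among 9 transcription factors and coactivators known from mitochondrial gene promoters, MYC rose most, at 1.93 ± 0.15 (edgeR, adjusted p = 5.34e-07). The coactivators PPARGC1B and PPRC1 rose, at 0.75 ± 0.26 and 0.48 ± 0.07, as did GABPB1, a subunit of the GABP complex, at 0.24 ± 0.08. NRF1, GABPA, YY1 and ESRRA had 0.06 ± 0.09, -0.17 ± 0.12, -0.04 ± 0.07 and -0.02 ± 0.07, and none of these 4 passed. Of the 22 MRP genes that rose, 19 had a promoter in the table: 3 held the NRF1 letters, 3 the E-box, 2 the ETS letters and 2 the YY1 letters, against 4, 4, 9 and 11 of the 49 others.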

How the data were processed

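RNA of 12 T47D libraries was measured. The authors deposited raw counts per gene symbol; per the submitters' processing notes, FastQC, STAR, Picard and HTSeq were used with GRCh37 (hg19). Not given in the sources used here are versions, annotation release, strand setting and library selection, so reads of overlapping genes may be split differently from GENCODE 29, which was used only for lengths and overlaps. There, 10 MRP genes share over 25% of their exon bases with other genes, MRPL9 and MRPS28 among them. Of 66 pseudogenes of MRP genes in the table, 57 had no count and none exceeded 5% of its parent's counts.

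Counts were fitted with edgeR 4.0.16 (TMM, filterByExpr with a minimum count of 10, robust quasi-likelihood F test, 1 mean per group over all 12 libraries) for 14799 genes with Benjamini-Hochberg adjustment at 0.05. All 76 MRP genes passed the filter. The method was tested on simulated counts without a shift between library numbers, so that test does not cover the shift seen here. Replicates differed beyond counting noise. Alternatives were RLE factors, no filter, DESeq2 1.42.0, the library number as a block, each library left out, and, chosen after seeing the data, all libraries numbered 2 left out.

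Within the groups of each 2-group comparison, deviations of same-numbered libraries correlated at 0.123 or more, so the numbers were taken to pair libraries there. Over all pairs of groups the lowest correlation was 0.0926. The main fit left this pairing out, so its spread includes the differences between library numbers. The genes and lists were chosen with earlier results of these data known. Named were the called genes with the largest change (up to 8 a direction), the 4 highest and 4 lowest per coding length, the 5 nearest no estradiol effect, the 3 with the largest and the 3 with the smallest spread, the MRPS18 paralogs, MRPL12 and MRPS36, with up to 4 called genes a direction from each list. MRPL14, MRPL52 and others outside this rule were named after their values were seen.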

Additional observations from a re-analysis of the deposited data

How the results depend on the processing

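With the replicate block, 34 genes were called higher for estradiol in control cells and 39 in HOXB13 cells, against 10 and 7 without it. In the averaged comparisons, which use all 4 groups, the block gave 51 higher and 1 lower for estradiol (backgrounds 22.7% and 22.8%), and 1 lower for HOXB13 (background 1.54%). The gene called lower was MRPL41 in both. The lowest correlation of same-numbered libraries, 0.0926, was between control vehicle and HOXB13 estradiol, so pairing by number is less sure there. Without the 4 libraries numbered 2 the estradiol counts were 25, 30 and 44. Leaving out 1 library gave 2 to 25 in control cells, 1 to 8 in HOXB13 cells and 14 to 36 averaged. The matching shares of all tested genes are not given here. The cause was not tested. RLE factors, no filter on low counts and DESeq2 kept every count within 1.5 times. For the single genes, 1006 of the values under settings other than leaving out 1 library kept their side of the threshold, 88 newly passed and 6 no longer passed; with 1 library left out 2501 kept it, 24 newly passed and 115 no longer passed. No called value reversed. With a library left out, a group of 2 was fitted with the spread pooled over all groups. Depth, at 17 or more counts per gene and library, limits the lowest genes, such as MRPL30 and MRPL53.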
